A study of Homo sapiens with 16 samples.

Results

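The hypoxia and HIF response genes examined here are a list of 33 human genes chosen by symbol, of which 32 had a row in both deposited expression tables; EGLN3 was not analysed here. The 32 genes stood among 17318 rows in the table of the first experiment and 18168 rows in that of the second, and each had 1 row per table. All tumours were xenografts of U87, an established human glioblastoma line labelled wild type and carrying luciferase, grown in the brains of nude mice and taken at euthanasia. Nude mice lack mature T cells but keep the other cells of the host, and every animal, controls included, received exosomes of mesenchymal stromal cells (MSC). In the first experiment 3 tumours came from mice given exosomes with human MYC siRNA 1 (Myc1) and 4 from mice given scramble siRNA 1 (Scr1). The second experiment compared 5 tumours treated with MYC siRNA 2 (Myc2) with 4 treated with scramble siRNA 2 (Scr2). Each library came from its own mouse, so p-values measure the spread between mice. Treatment in the first experiment began on day 28 and went on at intervals of every other day; each dose held 1000000000 exosomes in a volume of 100 µl, given retro-orbitally. The dosing of the second is not given in the sources used here.

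Cells measure oxygen through enzymes that hydroxylate the alpha subunits of hypoxia-inducible factor (HIF). In oxygenated cells the hydroxylated subunit is bound by the VHL ubiquitin ligase and destroyed, so HIF is controlled largely at the protein level, which RNA sequencing does not read. Where oxygen is short, HIF1A or EPAS1 pairs with ARNT and binds a short core motif near target genes for glycolysis, pH control, mitophagy, collagen hydroxylation and vessel growth. Glioblastomas are known for poorly perfused, necrotic regions in which these targets are transcribed.

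The deposited values were log2 CPM (read counts scaled to a common library total), with nearly the same distribution in every library of a table apart from the lowest values, so a difference is relative to the other genes of that tumour and levels were not compared between tables or between genes. Library sizes were not given; the lowest value of a library, a sign of its depth, lay at -2.54 on the log2 CPM scale in Scr1 replicate 3 and at -4.91 in the other 6 libraries of its table. In the second experiment Scr2 replicates 1 and 4 had lowest values of -4.38 and -3.38, against -5.16 to -4.99 in the other 7 libraries. Pairs of libraries correlated across genes at r = 0.933 to 0.974 in the first experiment and 0.904 to 0.969 in the second. GFAP, a marker of differentiated astrocytes, lay between 1.26 and 3.11 CPM in all 16 libraries, while VIM, a mesenchymal intermediate filament gene, lay between 3682 and 6074 CPM. MYC itself had 38.1, 26.5 and 14.3 CPM in Myc1 tumours, against 21.2, 30.2, 50.7 and 108 CPM in Scr1 tumours, and the groups overlapped (exact permutation test, two-sided p = 0.314). In the second experiment MYC went against the label, with 55.3, 57.5, 47.0, 72.1 and 42.3 CPM in the libraries labelled Myc2 and 40.2, 35.3, 47.1 and 25.9 CPM in those labelled Scr2 (exact permutation test, two-sided p = 0.0397). Directions in that experiment are therefore stated by label.

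No gene of either table passed an adjusted p of 0.05 in limma: called genes were 0% of the 13933 tested in the first experiment and 0% of the 14208 tested in the second. All 32 members passed the filter on low values in both. At an unadjusted limma p under 0.05, 17 of 32 members were higher and 0 were lower in libraries labelled Myc2 than in those labelled Scr2, where 7% of all genes tested were higher and 6.36% lower. The median log2 difference of the members was 0.87 in that experiment, against -0.0183 over all genes tested. Without Scr2 replicates 1 and 4, 11 of 32 members were higher, where 1.92% of all genes tested were higher. In the first experiment 3 of 32 members were higher and 1 was lower in Myc1 than in Scr1 tumours at that threshold, where 1.96% of all genes were higher and 1.52% lower, and the members' median was 0.30, against -0.0028 over all genes. Without Myc1 replicate 3 the members' median was 0.08, and 1 member was higher at that threshold without this library (0.682% of all genes) or without Scr1 replicate 4 (1.35%). Differences above 0 were found in 31 of 32 members in the second experiment and in 24 of 32 in the first, while 48.2% and 49.5% of all genes tested lay above 0.

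**Figure D1:**
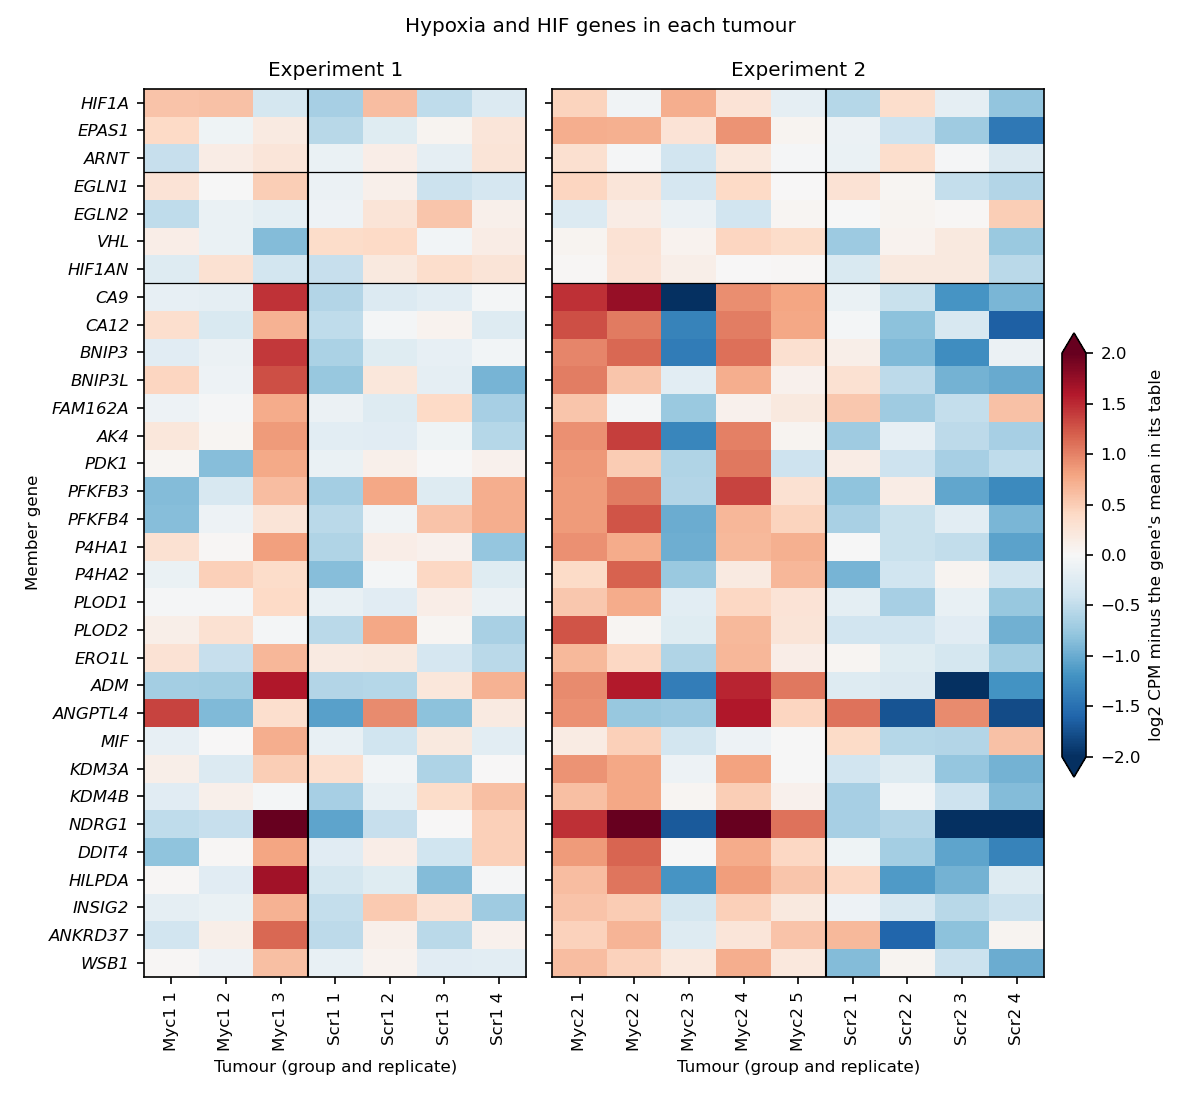
Heat map of the 32 members (rows, grouped by role) in each tumour (columns, the Myc group left of its Scr group in each experiment); colour gives log2 CPM minus the gene's mean over its table. In the second experiment 22 to 25 of the 25 targets were above their mean in Myc2 replicates 1, 2, 4 and 5, against 2 in Myc2 replicate 3 and 2 to 9 in the 4 Scr2 tumours.

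Promoters are shown for the 3 HIF targets of the list with the smallest limma p in the second experiment (DDIT4, WSB1 and KDM4B), because the core motif through which HIF binds is read on DNA. The sequences are RefSeq promoters of GRCh38.p14 on the plus strand, from 250 bases before to 50 bases after the start of the gene, 5′ to 3′. They lie at chr10:72273674-72273973 (DDIT4), chr17:27293864-27294163 (WSB1) and chr19:4968863-4969162 (KDM4B). Capitals mark each match to the core, ACGTG or GCGTG, on either strand, so that a match on the reverse strand appears as CACGT or CACGC.
DDIT4: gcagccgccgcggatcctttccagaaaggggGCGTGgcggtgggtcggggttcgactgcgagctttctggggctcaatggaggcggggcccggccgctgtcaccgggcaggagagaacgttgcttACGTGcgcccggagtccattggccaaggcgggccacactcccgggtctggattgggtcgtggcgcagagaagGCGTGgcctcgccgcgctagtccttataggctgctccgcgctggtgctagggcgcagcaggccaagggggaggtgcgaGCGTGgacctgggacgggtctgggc
WSB1: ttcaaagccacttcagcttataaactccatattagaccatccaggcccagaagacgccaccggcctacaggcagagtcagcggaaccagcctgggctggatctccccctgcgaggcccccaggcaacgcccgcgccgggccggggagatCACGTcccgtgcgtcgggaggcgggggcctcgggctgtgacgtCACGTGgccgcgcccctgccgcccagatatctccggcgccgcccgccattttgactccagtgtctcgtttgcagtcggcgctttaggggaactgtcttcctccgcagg
KDM4B: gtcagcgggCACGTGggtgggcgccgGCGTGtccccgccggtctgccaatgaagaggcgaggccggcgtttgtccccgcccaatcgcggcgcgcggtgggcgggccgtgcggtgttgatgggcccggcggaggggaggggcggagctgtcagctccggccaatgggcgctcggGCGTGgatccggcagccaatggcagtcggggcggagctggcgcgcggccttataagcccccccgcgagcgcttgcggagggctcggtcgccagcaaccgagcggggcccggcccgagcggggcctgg
DDIT4 held 4 matches, at 219, 125 and 53 bases before the start and 25 bases after it. WSB1 held 3, at 101, 58 and 57 bases before the start, and KDM4B held 4, at 241, 240, 224 and 77 bases before it. Neighbouring matches in WSB1 and KDM4B overlap as CACGTG, a palindrome that is also the E-box bound by the MYC family. Of the 32 members, 28 had a promoter sequence, without BNIP3L, HILPDA, NDRG1 and VHL. The core occurred in 24 of those 28 (85.7%), against 13213 of 27305 promoters of the same length (48.4%). CACGTG occurred in 6 of 28 (21.4%), in WSB1, KDM4B, AK4, BNIP3, ANKRD37 and EGLN2, against 2030 of 27305 (7.43%). The 27305 promoters were matched to the members neither for expression nor for base composition, and the members were chosen as genes of the HIF response. These shares therefore do not test enrichment. A match is a description of letters and does not show binding.

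The HIF subunits differed among themselves. EPAS1 (ENSG00000116016), which encodes HIF-2 alpha, had 248, 245, 181, 281 and 157 CPM in libraries labelled Myc2, against 139, 113, 91.9 and 55.6 CPM in those labelled Scr2. Every tumour labelled Myc2 lay above every tumour labelled Scr2. The log2 difference was 1.20 ± 0.27 (SE; 95% interval 0.61 to 1.79), with a limma p of 0.000897, an adjusted p of 0.370 and an exact two-sided permutation p of 0.00794, the smallest that these group sizes allow. HIF1A (ENSG00000100644), which encodes HIF-1 alpha, had 409, 286, 499, 365 and 266 CPM in libraries labelled Myc2 and 203, 383, 267 and 175 CPM in those labelled Scr2. These groups overlapped, with a log2 difference of 0.53 ± 0.26 (SE; exact permutation p = 0.127; limma adjusted p = 0.372). ARNT (ENSG00000143437), the shared partner of both alpha subunits, had 44.3, 34.7, 27.2, 40.9 and 34.8 CPM in libraries labelled Myc2 and 32.1, 44.9, 34.6 and 28.9 CPM in those labelled Scr2. Its log2 difference was 0.05, with a 95% interval from -0.37 to 0.47.

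None of the 3 subunits reached an unadjusted limma p of 0.05 in the first experiment. EPAS1 had 144, 103 and 124 CPM in Myc1 tumours, against 74.3, 92.6, 114 and 129 CPM in Scr1 tumours. HIF1A had 361, 365 and 191 CPM in Myc1 tumours, against 154, 372, 171 and 201 CPM in Scr1 tumours. ARNT had 20.5, 31.2 and 33.4 CPM in Myc1 tumours and 25.5, 30.7, 24.8 and 33.6 CPM in Scr1 tumours. The groups overlapped for all 3 genes, with log2 differences of 0.29 ± 0.23 for EPAS1, 0.48 ± 0.32 for HIF1A and -0.03 ± 0.26 for ARNT (SE). The smallest limma p of the 3 was 0.156, for HIF1A.

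The 4 regulators of HIF turnover had a median log2 difference of 0.27 in the second experiment. EGLN1, the main prolyl hydroxylase that marks HIF alpha for destruction, had 73.8, 64.8, 43.7, 72.1 and 55.2 CPM in libraries labelled Myc2 and 66.9, 56.4, 39.4 and 36.6 CPM in those labelled Scr2. EGLN2, another prolyl hydroxylase, had 55.4, 73.9, 61.8, 51.5 and 68.7 CPM in libraries labelled Myc2 and 66.4, 69.1, 68.2 and 94.4 CPM in those labelled Scr2. EGLN2 was the only member whose difference lay below 0 in both experiments, at -0.26 ± 0.17 in the second and -0.48 ± 0.22 in the first (SE). VHL, which encodes the substrate-binding subunit of the ligase, had 51.5, 60.9, 52.1, 67.2 and 64.4 CPM in libraries labelled Myc2 and 30.0, 52.5, 57.3 and 29.9 CPM in those labelled Scr2. The overlap came from Scr2 replicates 2 and 3, and the log2 difference was 0.54 ± 0.23 (SE; limma p = 0.0351, adjusted p = 0.370; exact permutation p = 0.0556). Without Scr2 replicates 1 and 4 the difference was 0.10 with a limma p of 0.565, and leaving out Scr2 replicate 1 or 4 alone ended the call at 0.39 each. It also ended without Myc2 replicate 2, 4 or 5, where the difference was 0.53, 0.49 or 0.51. HIF1AN, the asparagine hydroxylase that keeps HIF from its coactivators, had 101, 119, 107, 98.6 and 100.2 CPM in libraries labelled Myc2 and 79.9, 113, 112 and 68.0 CPM in those labelled Scr2, a log2 difference of 0.20 ± 0.18 (SE).

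In the first experiment EGLN2 had 47.4, 61.4 and 58.9 CPM in Myc1 tumours, against 62.7, 80.7, 98.6 and 72.4 CPM in Scr1 tumours. Every Myc1 tumour lay below every Scr1 tumour, a pattern shown by 2.27% of all genes tested (limma p = 0.0492, adjusted p = 0.996; exact two-sided permutation p = 0.0571). Leaving out 1 library ended that call for each library but Scr1 replicates 1 and 4, with differences of -0.55 to -0.36 where it ended. EGLN1 had 48.3, 39.8 and 56.3 CPM in Myc1 tumours and 36.8, 42.6, 29.5 and 31.6 CPM in Scr1 tumours, a log2 difference of 0.45 ± 0.24 (SE; limma p = 0.0735; exact permutation p = 0.0857). VHL had 34.4, 28.7 and 17.4 CPM in Myc1 tumours and 40.8, 41.5, 30.4 and 35.1 CPM in Scr1 tumours, a log2 difference of -0.51 ± 0.27 (SE; limma p = 0.0818; exact permutation p = 0.114). VHL and EGLN1 overlapped between groups, and their differences pointed opposite ways. HIF1AN had 67.5, 99.7 and 62.9 CPM in Myc1 tumours and 58.7, 92.8, 104 and 96.8 CPM in Scr1 tumours, a log2 difference of -0.20 ± 0.25 (SE).

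**Figure D2:**
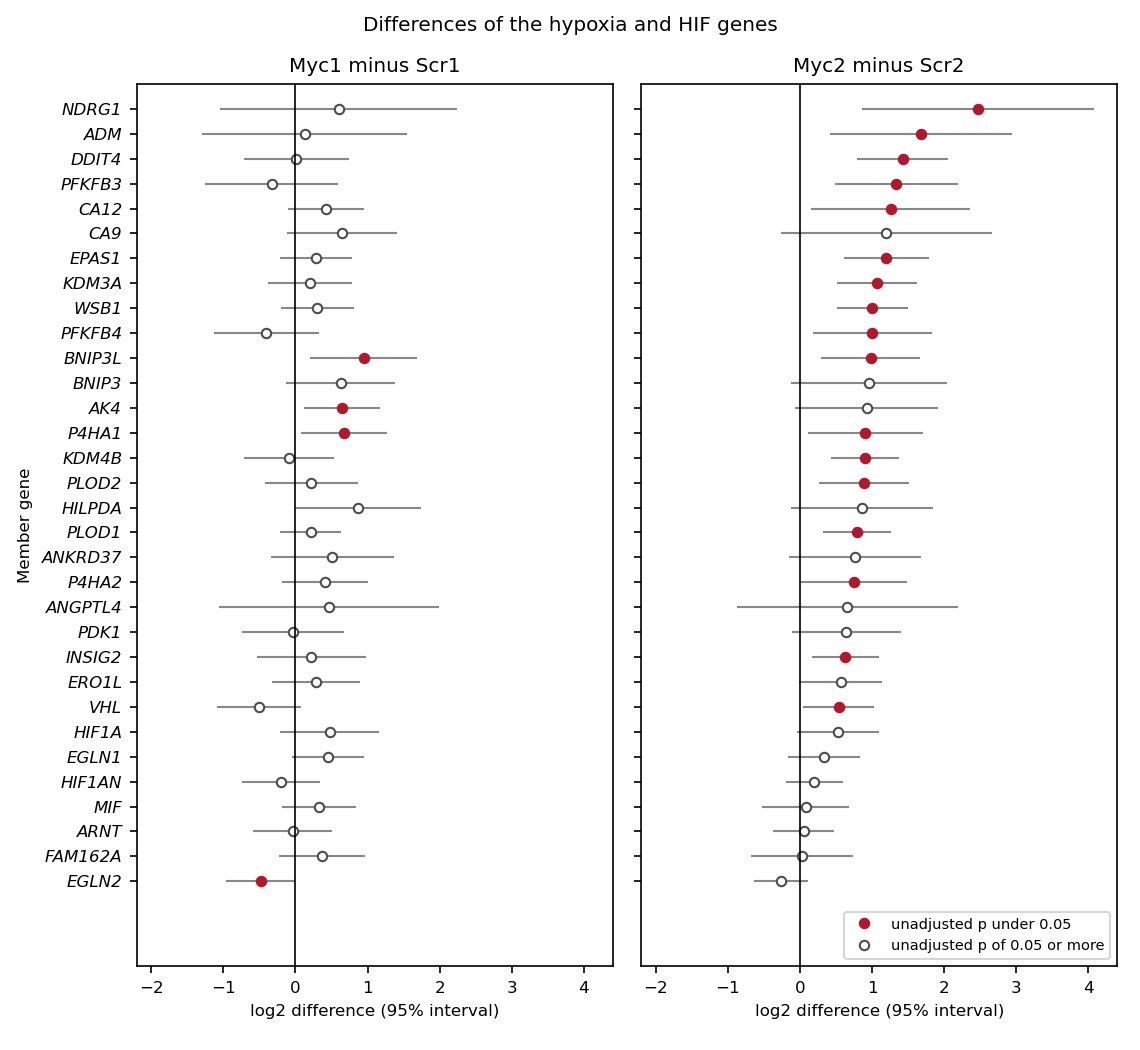
Log2 difference (Myc minus Scr) of each of the 32 members with its 95% interval from limma, in the first and second experiment. The second experiment has 31 of 32 estimates above 0, up to 2.47 for NDRG1, and the first has 24 of 32, up to 0.95 for BNIP3L.

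The 25 remaining members are targets of HIF, and all 25 had a difference above 0 in the second experiment, with a median of 0.91. At an unadjusted limma p under 0.05, 15 of 25 were higher in libraries labelled Myc2, where 7% of all genes tested were higher. DDIT4, an inhibitor of mTORC1 induced by hypoxia and other stresses, had 717, 893, 396, 668 and 530.2 CPM in libraries labelled Myc2, against 376, 249, 191 and 157 CPM in those labelled Scr2. The groups did not overlap, and the log2 difference was 1.42 ± 0.29 (SE; limma p = 0.000398, adjusted p = 0.370; exact permutation p = 0.0159). WSB1, an ubiquitin ligase subunit induced by hypoxia, had 152, 136, 114, 162 and 114 CPM in libraries labelled Myc2, against 54.0, 102, 73.3 and 49.6 CPM in those labelled Scr2. Its groups did not overlap either, with a log2 difference of 1.00 ± 0.22 (SE; limma p = 0.000837; exact permutation p = 0.00794).

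Both oxygen-dependent histone demethylases of the list separated the groups of the second experiment. KDM4B, which removes methyl groups from a lysine of histone H3, had 79.8, 89.2, 53.9, 74.0 and 55.8 CPM in libraries labelled Myc2, against 33.2, 50.3, 39.5 and 28.7 CPM in those labelled Scr2. KDM3A, another demethylase of the same lysine, had 114, 105, 56.7, 107 and 60.7 CPM in libraries labelled Myc2, against 46.7, 51.1, 35.6 and 31.7 CPM in those labelled Scr2. The log2 differences were 0.90 ± 0.21 for KDM4B and 1.07 ± 0.26 for KDM3A (SE), with limma p-values of 0.00139 and 0.00143 and an adjusted p of 0.370 for both. Together with EPAS1, DDIT4 and WSB1 they made 5 of 32 members (15.6%) whose groups did not overlap with Myc2 higher, against 1.4% of all genes tested; 0 members and 1.61% of all genes did so with Myc2 lower.

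**Figure D3:**
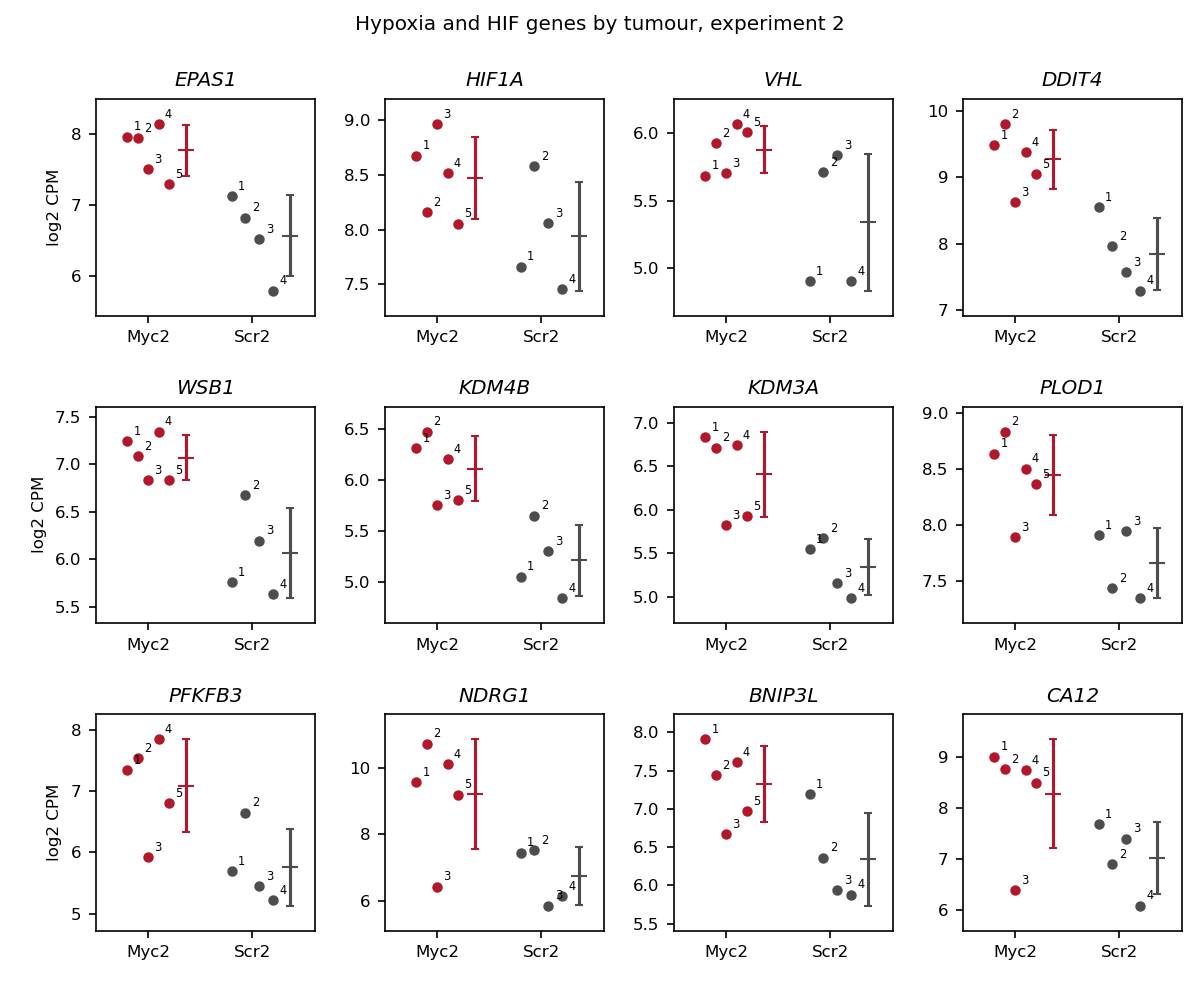
Log2 CPM of members in each tumour of the second experiment, with tumours labelled Myc2 left of those labelled Scr2; points are tumours and bars are group means with the SD. Myc2 replicate 3 lies apart from the other 4 Myc2 tumours in NDRG1, at 86.0 CPM, against 588 to 1706 CPM.

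Several targets were high in 4 of the 5 tumours labelled Myc2. NDRG1, a stress-induced gene that also restrains metastasis in some cancers, had 761, 1706, 86.0, 1115 and 588 CPM in libraries labelled Myc2, against 174, 185, 57.7 and 69.9 CPM in those labelled Scr2. Myc2 replicate 3 fell within the Scr2 range and the other 4 above it, with a log2 difference of 2.47 ± 0.74 (SE; limma p = 0.00604; exact permutation p = 0.0397). PFKFB3, which makes the activator of the glycolytic enzyme phosphofructokinase, had 163, 187, 60.5, 231 and 111 CPM in libraries labelled Myc2 and 51.9, 100.3, 43.8 and 37.4 CPM in those labelled Scr2. PLOD1, a lysyl hydroxylase of collagen, had 399, 457, 237, 363 and 330.2 CPM in libraries labelled Myc2 and 239.8, 173, 246 and 163 CPM in those labelled Scr2. For both genes Myc2 replicate 3 was again the single tumour within the Scr2 range, with log2 differences of 1.34 ± 0.39 for PFKFB3 and 0.79 ± 0.22 for PLOD1 (SE). BNIP3L, a mitophagy receptor on the mitochondrial surface, had 241, 174, 102, 195 and 125.8 CPM in libraries labelled Myc2 and 146, 82.3, 61.2 and 58.9 CPM in those labelled Scr2. Its log2 difference was 0.98 ± 0.31 (SE; limma p = 0.00895; exact permutation p = 0.0397), and only Scr2 replicate 1 overlapped the Myc2 range. Without Scr2 replicates 1 and 4 the limma p was 0.0881 for PFKFB3 and 0.0660 for NDRG1, at log2 differences of 1.04 and 2.52.

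The other targets of the second experiment are given by role. Of the collagen-modifying and oxidative folding enzymes, 4 of 5 were higher at an unadjusted limma p under 0.05, where 7% of all genes tested were higher. PLOD2, a lysyl hydroxylase, spanned 174 to 493 CPM in libraries labelled Myc2 and 106 to 176 CPM in those labelled Scr2, and the prolyl hydroxylase subunits P4HA1 and P4HA2 had log2 differences of 0.91 and 0.75. ERO1L, the oxidase that drives disulfide formation, had a log2 difference of 0.57 (limma p = 0.0525; exact permutation p = 0.0873). Both glycolytic regulators were higher, PFKFB4 by 1.00. Of the carbonic anhydrases that keep cell pH in hypoxia, CA12 was higher by 1.26 (limma p = 0.0288; exact permutation p = 0.0873), whereas CA9 had a log2 difference of 1.20 ± 0.67 (SE; limma p = 0.0977; exact permutation p = 0.198). CA9 spanned 23.9 to 376 CPM in libraries labelled Myc2 and 49.8 to 103 CPM in those labelled Scr2. Of the secreted factors, ADM, a vasodilator peptide, was higher by 1.68 (limma p = 0.0136; exact permutation p = 0.0714). ANGPTL4 and MIF had differences of 0.66 and 0.08, with limma p-values of 0.366 and 0.785. Of the 5 mitochondrial genes BNIP3L alone passed. AK4, BNIP3 and PDK1, a kinase that inhibits pyruvate dehydrogenase, had differences of 0.93, 0.96 and 0.64, and FAM162A one of 0.03. INSIG2, a brake on sterol synthesis, was higher by 0.63 (limma p = 0.0120; exact permutation p = 0.0397). The lipid droplet gene HILPDA and ANKRD37 had differences of 0.87 and 0.77 that did not pass. BNIP3 has a processed pseudogene and HIF1A has antisense transcripts. The counting method is not given in the sources used here, so reads shared with these cannot be told apart.

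Of the 25 targets, 21 had a difference above 0 in the first experiment, with a median of 0.33. Of these 25, 3 passed an unadjusted limma p of 0.05, all higher in Myc1, where 1.96% of all genes tested were higher. BNIP3L had 104, 72.1 and 187 CPM in Myc1 tumours and 45.7, 90.3, 68.1 and 40.4 CPM in Scr1 tumours, a log2 difference of 0.95 ± 0.34 (SE; limma p = 0.0161, adjusted p = 0.996; exact permutation p = 0.114). AK4, a mitochondrial adenylate kinase, had 60.4, 53.1 and 93.0 CPM in Myc1 tumours and 44.7, 43.9, 48.5 and 34.6 CPM in Scr1 tumours. It was the only member whose Myc1 tumours all lay above the Scr1 tumours, which 1.94% of all genes did. Its log2 difference was 0.65 ± 0.25 (SE; limma p = 0.0189, adjusted p = 0.996; exact permutation p = 0.0286, the smallest that these group sizes allow). In BNIP3L the groups overlapped. P4HA1 had 85.2, 69.8 and 122 CPM in Myc1 tumours and 45.4, 75.7, 73.4 and 40.5 CPM in Scr1 tumours, a log2 difference of 0.67 ± 0.28 (SE; limma p = 0.0306, adjusted p = 0.996; exact permutation p = 0.171). The groups overlapped there as well. All 3 of these calls ended without Myc1 replicate 3, at log2 differences of 0.58 for BNIP3L, 0.41 for AK4 and 0.45 for P4HA1. Leaving out Scr1 replicate 4 also ended the calls of BNIP3L and P4HA1, at 0.77 and 0.51, and leaving out Scr1 replicate 1 that of P4HA1, at 0.56.

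The next targets by p in the first experiment were HILPDA, CA9, BNIP3, CA12 and P4HA2. HILPDA had 24.6, 20.6 and 77.4 CPM in Myc1 tumours and 18.9, 20.3, 13.3 and 23.9 CPM in Scr1 tumours. CA9 had 88.6, 87.7 and 272 CPM in Myc1 tumours and 66.2, 82.5, 85.7 and 96.1 CPM in Scr1 tumours. BNIP3 had 57.0, 61.4 and 178 CPM in Myc1 tumours and 43.0, 56.6, 59.6 and 64.1 CPM in Scr1 tumours. In these 3 genes Myc1 replicate 3 stood above the other 6 tumours, and at least 1 other Myc1 tumour lay within the Scr1 range. CA12 had 259, 166 and 334 CPM in Myc1 tumours and 145, 200.1, 216 and 173 CPM in Scr1 tumours, and P4HA2 had 123, 186 and 172 CPM in Myc1 tumours and 73.9, 131, 179 and 114 CPM in Scr1 tumours. None of these 5 genes reached an unadjusted limma p of 0.05, the smallest being 0.0523 for HILPDA. The targets below 0 were PFKFB4, PFKFB3, KDM4B and PDK1, at -0.40, -0.33, -0.09 and -0.03. The remaining 13 targets lay between 0.01 (DDIT4) and 0.60 (NDRG1).

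**Figure D4:**
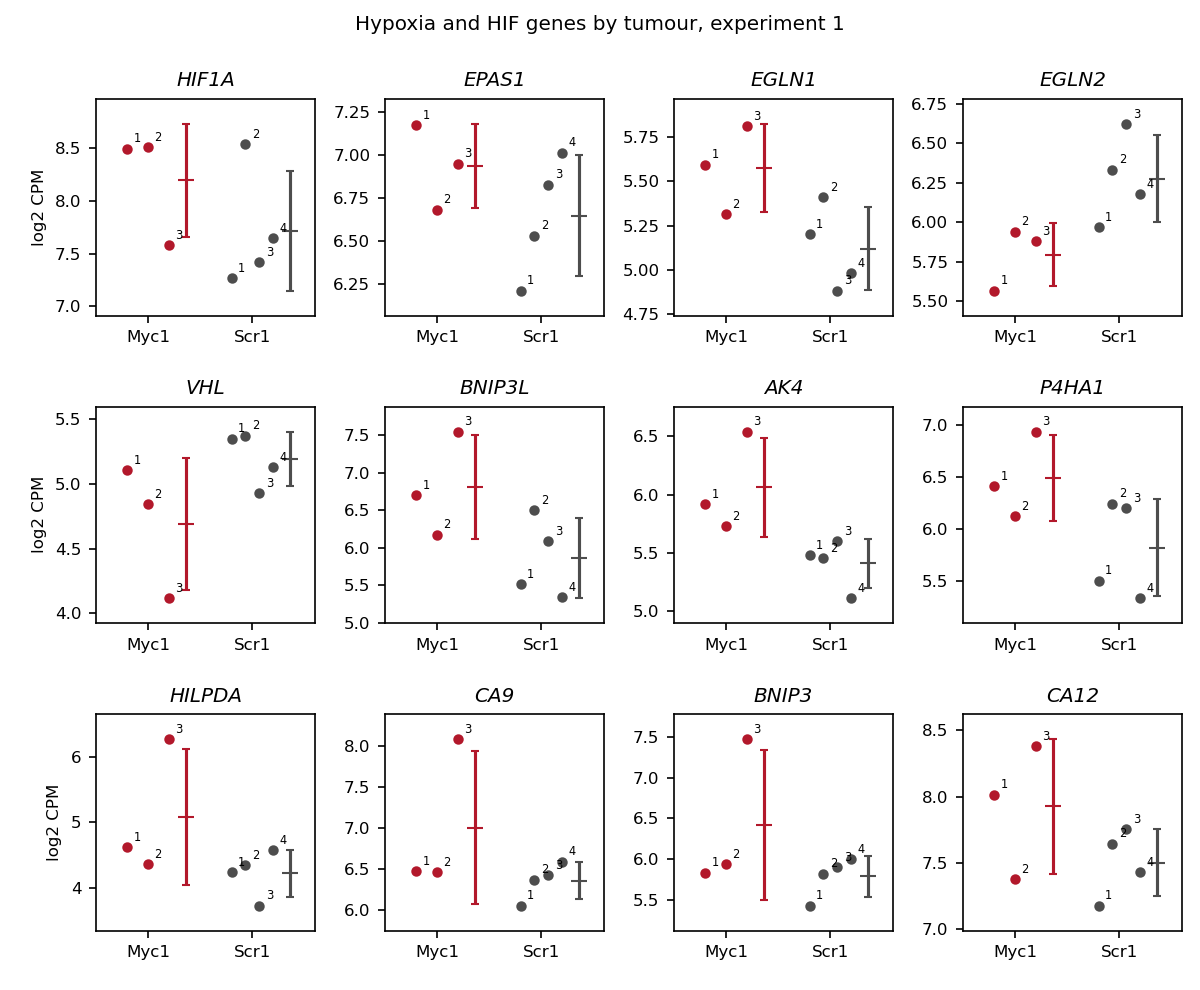
Log2 CPM of members in each tumour of the first experiment, with Myc1 tumours left of Scr1 tumours; points are tumours and bars are group means with the SD. In CA9 and BNIP3, Myc1 replicate 3 lies above the other 6 tumours, at 272 CPM and 178 CPM.

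Whether the difference between Myc and Scr tumours was unlike in the 2 experiments was tested in 1 limma fit over the 4 groups, as the siRNA 1 difference minus the siRNA 2 difference. Of the 32 members, 8 (25%) had an unadjusted p under 0.05, against 8.75% of the 13656 genes tested, and 0 members and 0% of genes passed an adjusted p of 0.05. In all 8 the difference was larger, by label, in the second experiment. The siRNA, its scramble control, the table and the experiment change together in this contrast and cannot be told apart. The count and its direction also rest on the labels of the second experiment, against which MYC goes. VHL had a difference of effects of -1.05 ± 0.35 and DDIT4 one of -1.41 ± 0.48 (SE), with a limma adjusted p of 0.528 for both. KDM4B, PFKFB3 and PFKFB4 followed at -0.99, -1.66 and -1.40. The remaining 3 were EPAS1, KDM3A and WSB1. Without Scr2 replicates 1 and 4 the count was 2 of 32 members, against 1.27% of all genes. Without 1 library it lay between 4 (without Myc1 replicate 1, against 6.63% of all genes) and 13 (without Myc2 replicate 3, against 8.52%). By label, BNIP3L and P4HA1 were higher at an unadjusted limma p under 0.05 in both experiments, and 24 members had a difference above 0 in both. With the labels of the second experiment exchanged, these members would differ in opposite directions in the 2 experiments.

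In each experiment 1 Myc tumour stood apart from its group in most targets. Expressed as the deviation of log2 CPM from the gene's mean over its table, the median of the 25 targets in Myc1 replicate 3 was 0.73, against -0.10 in each of the other Myc1 tumours and -0.52 to -0.01 in Scr1 tumours. That tumour had the highest value of the table in 19 of 25 targets. Its HIF1A level was below the table mean, with a deviation of -0.34, and its EPAS1 level was above it, at 0.18. In the second experiment the medians were 0.85, 0.77, -0.60, 0.72 and 0.30 in tumours labelled Myc2, against -0.10, -0.44, -0.55 and -0.91 in those labelled Scr2. Myc2 replicate 3 was the lowest of the Myc2 tumours in 24 of 25 targets, while its HIF1A value of 499 CPM was the highest of the table and its EPAS1 deviation was 0.27. In both tumours that stood apart from their group, the HIF1A transcript lay on the other side of the mean from the targets. This was not particular to them. It also held in Myc1 replicates 1 and 2, Scr1 replicate 2, Myc2 replicates 2 and 5 and Scr2 replicate 2. Of the 25 targets, 15 had 4 of the 5 Myc2 tumours above every Scr2 tumour, 4 had all 5, and FAM162A and MIF had 0. All 5 lay above in 1.4% of all genes tested, and the share of all genes with 4 of 5 was not computed. Scr2 replicate 4, one of the libraries with a high lowest value, was the lowest of the table in 12 of 25. The counts of highest and lowest values per tumour were not made over all genes. They therefore do not show whether these tumours stood apart in the HIF targets alone.

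**Figure D5:**
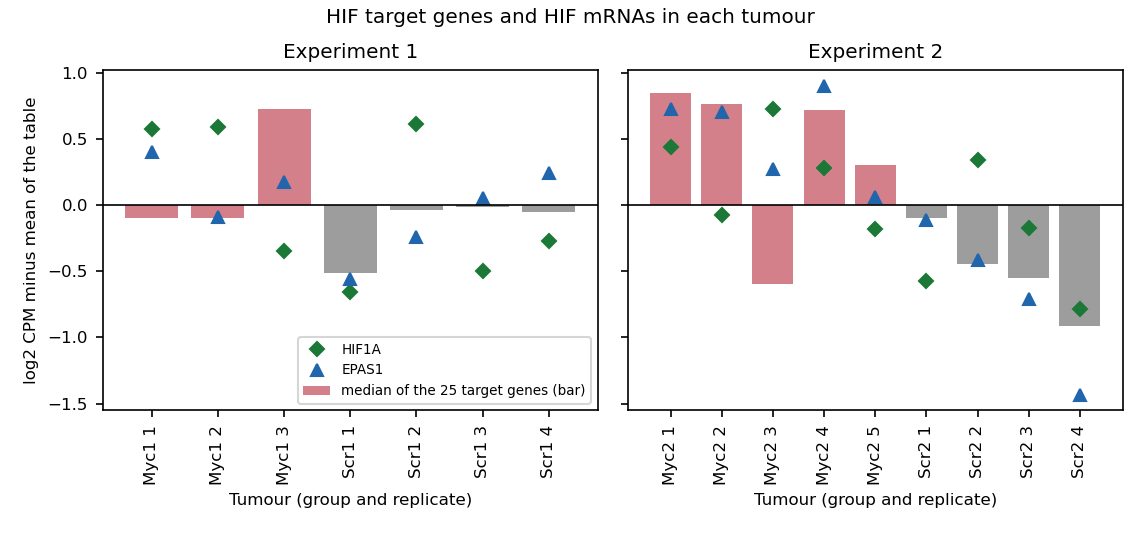
Log2 CPM minus the gene's mean over its table, in each tumour, with the Myc group (red) left of its Scr group (grey) in each experiment; bars are the median of the 25 HIF targets, diamonds HIF1A and triangles EPAS1. Myc1 replicate 3 has a bar at 0.73 with HIF1A at -0.34, and Myc2 replicate 3 a bar at -0.60 with HIF1A at 0.73.

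HIF targets outside the list were read in the same way, from another list, with 49 genes measured in each table. That list too was chosen with earlier results of these data known, so it is not independent of the members. In the second experiment 25 of the 48 tested were higher and 0 lower at an unadjusted limma p under 0.05, with a median log2 difference of 0.72. Of all genes tested, 7% were higher and 6.36% lower. VEGFA, which encodes the main vessel growth factor, had 1807, 2175, 324, 2484 and 1139 CPM in libraries labelled Myc2, against 199, 335, 267 and 66.7 CPM in those labelled Scr2. Myc2 replicate 3 was again within the Scr2 range, and the log2 difference was 2.80 ± 0.61 (SE; limma p = 0.000671, adjusted p = 0.370; exact permutation p = 0.0238). STC2, a secreted glycoprotein, had 6.22, 52.3, 11.8, 10.1 and 2.50 CPM in libraries labelled Myc2, against 1.69, 1.56, 0.158 and 0.407 CPM in those labelled Scr2, without overlap. HK2, the hexokinase that starts glycolysis, had 88.4, 136, 25.1, 114 and 69.2 CPM in libraries labelled Myc2 and 26.4, 18.9, 27.7 and 12.6 CPM in those labelled Scr2. NFIL3, a transcription factor, had 52.4, 55.7, 23.3, 69.6 and 57.3 CPM in libraries labelled Myc2 and 33.0, 13.5, 12.3 and 15.6 CPM in those labelled Scr2. The log2 differences of STC2, HK2 and NFIL3 were 3.95 ± 0.88, 1.88 ± 0.44 and 1.51 ± 0.35 (SE). That of STC2 rests in part on Scr2 values of 0.158 and 0.407 CPM, under the 1 CPM used as the filter.

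Among the 49 other targets, 5 in the first experiment were higher and 0 lower at that threshold, with a median log2 difference of 0.13. Of all genes tested, 1.96% were higher and 1.52% lower. RORA, a nuclear receptor gene, had 8.12, 4.53 and 13.1 CPM in Myc1 tumours and 2.24, 7.08, 1.86 and 2.56 CPM in Scr1 tumours (limma p = 0.0127; exact permutation p = 0.0857). MXI1, a MAX partner that opposes MYC, had 17.6, 18.8 and 51.6 CPM in Myc1 tumours, against 12.9, 17.5, 8.15 and 11.4 CPM in Scr1 tumours, without overlap (limma p = 0.0135; exact permutation p = 0.0571). LOX, which crosslinks collagen, had 25.9, 22.4 and 30.7 CPM in Myc1 tumours and 11.0, 23.2, 16.7 and 12.3 CPM in Scr1 tumours. STC2 had 1.56, 1.02 and 2.58 CPM in Myc1 tumours and 0.0333, 1.23, 0.432 and 0.411 CPM in Scr1 tumours, and TGFA was the fifth gene. The STC2 value of 0.0333 CPM is the lowest value of the Scr1 replicate 1 library, so the difference of STC2 rests on values near the floor. VEGFA had a log2 difference of -0.07 ± 0.51 (SE; limma p = 0.898; exact permutation p = 0.857).

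Other genes around the pathway are given as counts. At an unadjusted limma p under 0.05, 7% of all genes tested were higher and 6.36% lower in the second experiment. In the first experiment these shares were 1.96% and 1.52%. In the second experiment, of 7 tested HIF subunits and partners, EPAS1 alone was higher at an unadjusted limma p under 0.05. Of 11 tested genes of oxygen sensing and HIF turnover, VHL was higher and 2 were lower, the ligase subunits RBX1 and CUL2 at log2 differences of -0.75 and -0.33. Of 33 ribosomal protein genes 0 were higher and 5 lower, with a median of -0.33. Their mean log2 CPM was 9.80 and 10.07 in Scr2 replicates 1 and 4, the libraries with high lowest values. It was 8.97 and 9.14 in Scr2 replicates 2 and 3, within the range of 8.75 to 9.31 in tumours labelled Myc2. Of 14 proliferation genes 5 were lower, with a median of -0.31. In the first, 0 ribosomal protein and 0 proliferation genes passed, with medians of 0.18 and -0.04.

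Markers of cell types that a brain tumour can hold were summed as CPM of their human rows. The tumour cells are human, whereas the cells of the host are of mouse. Any separation of mouse reads is not given in the sources used here, so sums of human rows do not measure host cells. In bulk tumours fewer cells of a type and less RNA per cell cannot be told apart. At an unadjusted limma p under 0.05, 7% of all genes tested were higher in the second experiment and 1.96% in the first. Endothelial markers summed to 4.72 to 13.7 CPM in libraries labelled Myc2 and 4.26 to 6.74 CPM in those labelled Scr2, with 1 of the 4 tested, CDH5, higher at an unadjusted limma p under 0.05. Pericyte markers summed to 188 to 408 CPM in libraries labelled Myc2 and 138 to 274 CPM in those labelled Scr2, with 1 of 4 tested higher. Astrocyte markers summed to 204 to 842 CPM in libraries labelled Myc2 and 170 to 491 CPM in those labelled Scr2, with 1 of 5, SLC1A3, higher. Sums of microglia and macrophage markers covered 3 of the 8 listed genes in each experiment, of which CD68 and CSF1R alone were tested. These sums were 178 to 277 CPM in libraries labelled Myc2 and 163 to 268 CPM in those labelled Scr2, with 0 of 2 past that threshold. Neuronal markers summed to 13.9 to 23.5 CPM in libraries labelled Myc2 and 15.5 to 26.8 CPM in those labelled Scr2, with 0 of 3 past it and a median log2 difference of -0.38. Oligodendrocyte markers, of which CNP alone was tested, summed to 105 to 151 CPM in libraries labelled Myc2 and 119 to 139 CPM in those labelled Scr2. All these ranges overlapped. In the first experiment endothelial markers summed to 2.64 to 3.58 CPM in Myc1 tumours and 2.83 to 4.48 CPM in Scr1 tumours. Astrocyte markers summed to 325 to 405 CPM in Myc1 tumours and 144 to 401 CPM in Scr1 tumours, with 1 of 5, SLC4A4, higher. Microglia and macrophage markers summed to 332 to 403 CPM in Myc1 tumours and 247 to 347 CPM in Scr1 tumours, and pericyte markers to 206 to 295 CPM in Myc1 tumours and 206 to 369 CPM in Scr1 tumours. Neuronal markers summed to 19.5 to 20.9 CPM in Myc1 tumours and 13.1 to 21.4 CPM in Scr1 tumours, with 1 of 3 tested higher, and oligodendrocyte markers to 148 to 185 CPM in Myc1 tumours and 134 to 196 CPM in Scr1 tumours. The ranges overlapped here too. The endothelial markers PECAM1, FLT1 and CLDN5 and the 6 erythroid markers were not analysed here. The part of other cell types and of library depth in the differences of the HIF genes was not tested.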

How the data were processed

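Per the labels' protocols, RNA of 16 U87 xenografts, all at or above an integrity score of 7.2, was read on an Illumina NextSeq. As listed in the submitters' processing notes, bcl2fastq 2.20.0, STAR 2.6.0b and Picard were used, with the builds hg19 and mm10; not given in the sources used here were the counting tool, the annotation, strand use and any separation of mouse reads. For each experiment the authors deposited a table of log2 values. The unit, log2 CPM with nearly equal distributions within a table, was read from the values: taken back from log2, each library summed to between 995054 and 998392, and 0 library columns were identical. Depth is unknown, so no counting interval was given.

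The deposited log2 values were used directly and fitted with limma 3.58.1 in R 4.3.3, with trend and robust settings, tested on simulated data. Genes entered with at least 1 CPM in 3 libraries (siRNA 1) or 4 (siRNA 2). P-values were adjusted over all genes tested by the Benjamini-Hochberg method at 0.05. For single genes an exact two-sided permutation of labels was added, with smallest possible p-values of 0.0286 and 0.00794. Replicate numbers follow accession order and only name tumours. Alternatives were each library left out, Scr2 replicates 1 and 4 left out together, log2(CPM + 0.1), log2(CPM + 1), other filters, other limma settings and median centring. The members and lists were chosen with earlier results of these data known. Values per tumour are given for the HIF subunits, the regulators of HIF turnover, MYC and, in each experiment, the 8 other members and the 4 other HIF targets with the smallest limma p. Figures were drawn with matplotlib 3.10.9.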

Additional observations from a re-analysis of the deposited data

Results flagged for a closer look

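Within groups of 4 or 5 tumours, 6 of 96 sets of member values held 1 tumour far from the others by Dixon's criterion. Chance meets that criterion in about 1 of 20 groups, so the count is near the chance rate. The sets come from the same tumours and are not independent, and the rate over all genes was not computed. In 5 of the 6 the tumour was Myc2 replicate 3, always as the lowest. ADM, the vasodilator peptide gene, was at 5.37 on the log2 CPM scale there (41.4 CPM), against 206 to 323 CPM in the other tumours labelled Myc2. The carbonic anhydrase genes stood apart in the same tumour, CA12 at 6.39 (83.8 CPM), against 361 to 513 CPM, and CA9 at 4.58 (23.9 CPM), against 194 to 376 CPM. The lipid droplet gene HILPDA was at 3.94 (15.3 CPM), against 50.9 to 72.9 CPM, and the prolyl hydroxylase subunit gene P4HA1 at 5.74 (53.3 CPM), against 165 to 197 CPM. The sixth value was EGLN2 in Scr2 replicate 4, at 6.56 (94.4 CPM), against 66.4 to 69.1 CPM in the other tumours labelled Scr2.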

How the results depend on the processing

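No paired analysis was possible because the labels give no replicate numbers shared between groups. Without 1 library each, members higher at an unadjusted limma p under 0.05 numbered 1 to 7 in siRNA 1 (1 without Myc1 replicate 3 or Scr1 replicate 4, 5 without Scr1 replicate 2, 6 without Myc1 replicate 1, 7 without Myc1 replicate 2) and 12 to 23 in siRNA 2, with the highest without Myc2 replicate 3. Over the same fits 0.682% to 3.42% of all genes were higher in siRNA 1 and 3.05% to 13.3% in siRNA 2. Members lower in siRNA 1 numbered 0 to 1, and 0 with log2(CPM + 1), with at least 1 CPM in every library and with limma without trend and robust settings, since EGLN2 stood close to the threshold. Members whose effects differed between the experiments numbered 4 to 13 without 1 library (4 without Myc1 replicate 1, 5 without Myc1 replicate 2, Scr1 replicate 4 or Scr2 replicate 4, 13 without Myc2 replicate 3), and over these fits 3.83% to 20.1% of all genes differed. Without Scr2 replicates 1 and 4 together, siRNA 2 had 11 members higher (1.92% of all genes) and 2 members differed between the experiments (1.27% of all genes); ARNT then stood at -0.14 and HIF1AN at -0.11, both below 0 in place of above it. Without 1 library ARNT ranged over -0.17 to 0.18 in siRNA 1 and -0.0367 to 0.17 in siRNA 2. The cause of these shifts was not tested. The siRNA 2 median over members stayed between 0.74 and 1.03 without 1 library and was 0.76 without Scr2 replicates 1 and 4. DDIT4, EPAS1, WSB1, KDM4B, KDM3A, PLOD1, PFKFB3, NDRG1 and BNIP3L kept an unadjusted limma p under 0.05 in siRNA 2 without any 1 library. Library sizes, which are not given, limit what low values can show.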

Other observations

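DDIT4 is also known as a target of the integrated stress response, so 15 genes of that response and of the related unfolded protein response were read beside it. At an unadjusted limma p under 0.05, 4 of 15 were higher and 1 was lower in libraries labelled Myc2 than in those labelled Scr2. Their median log2 difference was 0.02, and 7% of all genes tested were higher and 6.36% lower. In the first experiment 0 of 15 passed. CEBPB, a transcription factor of stress and inflammation, spanned 81.4 to 102 CPM in libraries labelled Myc2, against 28.0 to 63.7 CPM in those labelled Scr2, without overlap (log2 difference 1.21 ± 0.22, SE). The other genes higher were PPP1R15A, HSPA5 and XBP1, at 1.12, 0.50 and 0.57, and PHGDH, of serine synthesis, was lower at -0.50. Of these, HSPA5 and XBP1 belong mainly to the unfolded protein response. ATF4, the central factor of the integrated stress response, had a log2 difference of -0.0031. Its targets ASNS, TRIB3 and DDIT3 had differences of -0.15, 0.19 and 0.18, and none of these 4 genes passed that threshold. These values are mRNA levels and do not read ATF4 protein. Whether this response took part in the DDIT4 difference was not tested.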
